A study of Mus musculus with 30 samples.

Results

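Blood mononuclear cells taken 18 h after an injection of oleic acid (OA) were compared with those taken 18 h after an injection of physiological serum, in 3 and 2 of the 30 arrays of a time course of acute lung injury in mice. The 5 arrays were chosen by their titles, which name the 18 h time and the injected agent. The tested mice received OA at 1.2 µl/g body weight, given as 200 µl into the tail vein, and the controls received 200 µl of physiological serum by the same route. All of these mice were female C57BL/6 (C57BL/6J in the treatment protocol), 6 weeks old, and anaesthetised with xylazine and ketamine. Blood was drawn into EDTA by bleeding through the eye vein at death, mononuclear cells were floated on a Ficoll gradient, and their RNA was labelled with Cy3 and hybridised to Agilent mouse expression arrays in 1 colour. Each array is treated here as 1 mouse, because the design text counts 30 mice and 30 arrays were deposited. The labels do not say so themselves, so p-values measure the spread between these arrays, which may be partly technical. Replicate numbers name arrays within a group and were not used to pair OA with serum mice in the main test.

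OA is a monounsaturated fatty acid. Injected into a vein it reaches the lung capillaries first, injures endothelium and epithelium, and floods the air spaces with protein-rich fluid, which makes it a standard model of acute lung injury. Blood monocytes and neutrophils are recruited to such a lung, and in the blood they respond to injury signals through Toll-like receptors and chemokine receptors, turning on immediate early genes, cytokines and their feedback inhibitors. Mononuclear cells are lymphocytes and monocytes, while neutrophils mostly sink through the gradient. In a bulk sample, fewer cells of a type and less RNA per cell cannot be told apart.

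At 18 h no gene passed the test. Of 18546 genes measured, 0 reached an adjusted p of 0.05 in limma (Benjamini-Hochberg over all genes, lowest adjusted p = 1.00), which is 0.0% of genes. At an unadjusted p under 0.05 there were 171 genes (0.922%), 119 higher after OA (0.642%) and 52 lower (0.28%). This split depended on which dim probes were kept. Of the 171 genes, 68 were well above background on neither serum array and so were kept through the OA arrays alone. Without a filter on dim probes, 145 genes were higher and 271 lower. With only probes well above background on every 18 h array, 45 were higher and 18 lower. The split is therefore not read as a direction of effect. Among the genes of the lists described below, Cd14 had the smallest unadjusted p. It is a co-receptor for bacterial lipopolysaccharide, and it averaged 1.85 ± 1.01 in OA mice (SD, n = 3) and -0.01 ± 0.97 in serum mice (SD, n = 2), a difference of 1.86 on the log2 scale or 3.62-fold. Levels here and below are log2 signals minus the 75th percentile of the same array, so that 0 is that percentile, and differences are OA minus serum. A level compares arrays for 1 probe and is not set against the level of another gene.

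The precision of a single gene was limited in this comparison of 3 OA and 2 serum arrays. The median SE of a difference was 0.44, and the 95% interval lay within 1 log2 unit on both sides of 0 for 6526 genes (35.2%). For the other genes a change of 2-fold in 1 direction or both was not excluded by the interval. The median SD was 0.51 among OA arrays and 0.32 among serum arrays. The differences themselves had a median of -0.05 and an SD of 0.39 over genes, with 7717 above 0 and 10829 below. All 3 OA arrays lay above both serum arrays in 483 genes (2.6%) and below both in 481 (2.59%), or 964 in all (5.2%). The unadjusted count grew when an array was left out, to between 213 genes without OA replicate 2 and 716 without OA replicate 1. It was 336 without OA replicate 3, 409 without serum replicate 1 and 329 without serum replicate 2, and the adjusted count remained 0 in each. Why the unadjusted count grew was not tested.

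**Figure D1:**
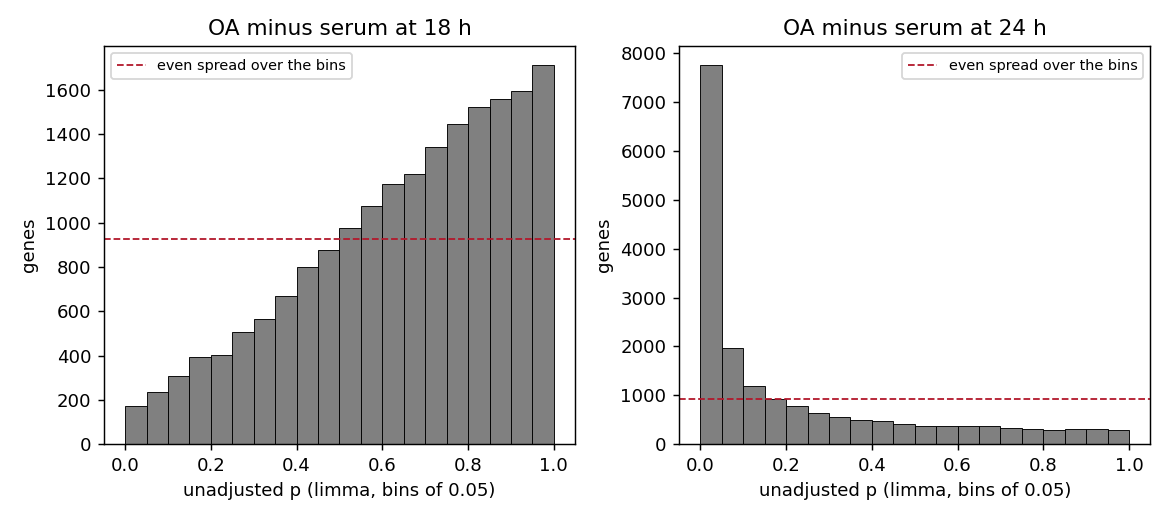
Numbers of genes (vertical axis) by unadjusted limma p (horizontal axis, bins of 0.05) for OA minus serum at 18 h (left) and at 24 h (right), 18546 genes each, with a dashed line where an even spread over the bins would lie. At 18 h the lowest bin holds 171 genes and is the smallest of the 20 bins, and at 24 h it holds 7758 and is the largest.

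The arrays did not sort by treatment. OA replicate 2 and serum replicate 2, which lay on the same slide, were the most alike pair (Pearson r = 0.977 over probes), and OA replicates 1 and 3 were the least alike (r = 0.864). OA replicates 1, 2 and 3 lay on slides 3, 4 and 5 and serum replicates 1 and 2 on slides 2 and 4, so slide 4 gave the 1 comparison within a slide. Its value, OA replicate 2 minus serum replicate 2, is given below for some genes as the within-slide difference and has no test. OA replicate 1 was scanned on another day than the other 4 arrays. Between 41.2% and 47.3% of probes were well above background on these arrays.

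Markers of red cells and platelets varied more between mice of 1 group than between the group means. The labelled mononuclear cells were measured through T cell, B cell, natural killer (NK) cell and monocyte markers, of which 16 of 16, 14 of 15, 15 of 15 and 13 of 14 passed the filter on dim probes (well above background on 2 or more of these 5 arrays). Neutrophil (18 of 18), platelet (16 of 16) and erythroid (14 of 16) markers were measured as well. The mean level of the erythroid markers was 4.13, 5.39 and 7.01 in OA mice, against 6.26 and 5.29 in serum mice. That of the platelet markers was 4.12, 5.11 and 4.06 in OA mice, against 3.31 and 5.82 in serum mice. Both sets of arrays overlapped, and OA replicate 3 had the most erythroid and serum replicate 2 the most platelet signal. The median differences of these lists were -0.22 and -0.15, beside -0.05 over all genes, and leaving out 1 array moved them between -0.95 and 0.55 and between -1.44 and 1.12. The part of red cells and platelets in the other results was not tested. Of the lung epithelium and endothelium list, 5 of 14 genes were measured, with a median difference of 0.03.

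**Figure D2:**
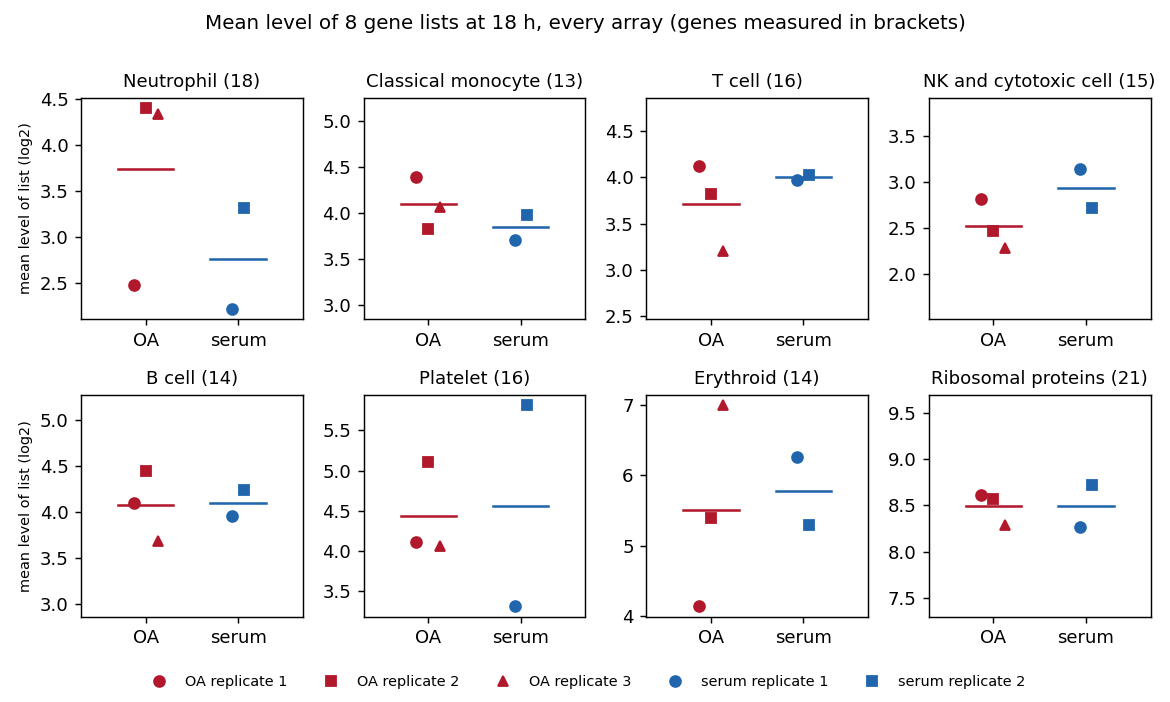
Mean log2 level (vertical axis, relative to each array's 75th percentile) of 8 gene lists in each array at 18 h, OA on the left and serum on the right of each panel, with a bar at the group mean and the number of genes measured in brackets. Erythroid means run from 4.13 to 7.01 among OA mice, neutrophil means are 2.49, 4.40 and 4.33 in OA mice and 2.22 and 3.31 in serum mice, and the ribosomal protein means differ least between arrays.

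The probes of S100a8, the neutrophil calcium-binding protein, and of Alox15, the 12/15-lipoxygenase that oxidises polyunsaturated fatty acids, are shown because they are the measured part of each transcript. In mm9 the S100a8 probe lies at chr3:90473778-90473837 on the + strand, and the Alox15 probe spans an intron between chr11:70159115-70159339 on the - strand.
S100a8 probe: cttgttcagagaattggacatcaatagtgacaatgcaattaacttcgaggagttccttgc
Alox15 probe: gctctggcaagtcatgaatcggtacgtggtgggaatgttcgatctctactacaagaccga

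The promoters of Cxcl2, Plaur and Atf3 are shown because these are textbook targets of injury signalling and stood higher in OA than in serum arrays on average. Each is the 130 bases before the annotated start (RefSeq, GRCm38.p6), at chr5:90903769-90903898 on the + strand, chr7:24462353-24462482 on the + strand and chr1:191183334-191183463 on the - strand. Capitals mark matches, on either strand, to an NF-kB-like motif (GGG, any 2 bases, then TTTCC), AP-1-like TGANTCA, cyclic AMP response element-like TGACGTNA and the amino acid response-like TGATGCAA.
Cxcl2 promoter: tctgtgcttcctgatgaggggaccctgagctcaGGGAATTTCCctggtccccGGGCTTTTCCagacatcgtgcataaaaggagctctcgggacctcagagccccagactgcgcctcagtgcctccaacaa
Plaur promoter: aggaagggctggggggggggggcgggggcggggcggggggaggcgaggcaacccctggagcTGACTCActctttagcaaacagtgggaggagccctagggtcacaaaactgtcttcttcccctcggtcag
Atf3 promoter: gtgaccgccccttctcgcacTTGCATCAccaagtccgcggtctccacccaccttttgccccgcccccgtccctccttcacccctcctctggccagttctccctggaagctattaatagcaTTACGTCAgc

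The Cxcl2 window held 2 NF-kB-like matches, which begin 97 and 78 bases before the start. The Plaur window held 1 AP-1-like match, 69 bases before it. The Atf3 window held 1 element of the cyclic AMP type 10 bases before the start and 1 of the amino acid response type 110 bases before it, both read on the other strand. Of 32851 promoter windows of the same length, 0.785% held the NF-kB-like motif, 3.70% the AP-1-like, 1.96% the cyclic AMP and 0.472% the amino acid response motif. A match describes letters and not a bound site.

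Neutrophil markers stood above 0 as a list. Of 18 measured, 17 had a positive difference and 0 passed the test, with a median of 1.03 beside -0.05 over all genes. The arrays of 2 of them did not overlap, both higher after OA, against 2.6% of all genes. S100a8 had levels of 6.61, 8.54 and 9.16 in OA mice, against 6.45 and 7.80 in serum mice. OA replicate 1 lay between the serum mice and the other 2 OA mice above them, with a difference of 0.98 (SE 0.78) and a within-slide difference of 0.73. S100a9, its partner in calprotectin, had 8.57, 10.33 and 10.94 in OA mice, against 8.29 and 9.60 in serum mice, the same order of arrays.

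Clec4e (Mincle), a receptor for lipids of dying cells and mycobacteria, had 0.59, 2.14 and 2.50 in OA mice, against 0.18 and 0.48 in serum mice. The groups did not overlap, although OA replicate 1 was close to serum replicate 2, and the difference was 1.42 (SE 0.65, 95% interval 0.08 to 2.76). Cxcr2, the receptor through which neutrophils follow chemokines out of the marrow and into tissue, had 1.84, 4.02 and 3.80 in OA mice, against 1.22 and 2.33 in serum mice. Hdc, which makes histamine, differed by 1.39 and Il1r2, the decoy receptor for interleukin 1, by 1.28, and in both the groups overlapped. Lcn2, an iron-siderophore binding protein of neutrophil granules, differed by 1.18 with overlapping arrays.

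The neutrophil median varied in size with the choice of arrays. It was 1.81 without OA replicate 1 and 0.38 without serum replicate 1, and above 0 in all 5 such fits and in the 16 other alternatives. These fits reuse the same 5 arrays and cannot settle the sign. In OA replicate 1 the mean of the list was 2.49, between the 2.22 and 3.31 of the serum mice. Of the granule genes made in immature neutrophils of the marrow, 9 of 14 were measured, 4 with a positive and 5 with a negative difference. Their median was -0.21 and kept its sign in 2 of 5 fits that left out 1 array. Camp (-0.81) and Ltf (-0.69), antimicrobial proteins of these granules, were lower and Cd177 (0.72), a neutrophil surface protein, higher without overlap. The difference between the 2 lists was not tested.

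Monocyte genes split within their lists. Classical monocyte markers had a median of -0.01 over 13 genes, 6 above and 7 below 0, and the arrays of 3 were higher after OA without overlap, against 2.6% of all genes. The median lay above 0 in all 5 fits that left out 1 array, from 0.04 to 0.45. Cd14 had 0.72, 2.15 and 2.67 in OA mice, against -0.69 and 0.67 in serum mice. All OA mice lay above both serum mice, by a small margin for OA replicate 1, and the difference of 1.86 had an SE of 0.70 and a 95% interval of 0.42 to 3.30. Within the slide it was 1.47.

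Csf1r, the receptor for the growth factor that keeps monocytes alive, had 5.93, 5.36 and 5.99 in OA mice, against 5.30 and 5.24 in serum mice. The groups did not overlap and the difference was 0.49, but its 3 probes ranged from 0.10 to 0.49. Within the slide the Csf1r difference was 0.13. Mgst1, a microsomal glutathione transferase, had 2.52, 2.49 and 2.33 in OA mice, against 1.44 and 2.23 in serum mice. Its difference was 0.61, with 0.38 at its other probe and 0.26 within the slide. Ccr2, the receptor by which classical monocytes leave the marrow, ran the other way and averaged 1.18 ± 0.92 in OA mice (SD, n = 3) and 1.66 ± 0.23 in serum mice (SD, n = 2). The groups overlapped because OA replicate 1, at 2.24, was the highest of the 5.

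Patrolling monocyte markers had a median of 0.28 over 15 genes, 12 above and 3 below 0, and it was 0.06 without serum replicate 1 and -0.12 within the slide. Cd300ld, a myeloid Fc receptor-like protein, differed by 1.01, and Fcgr4, an activating receptor for IgG, by 0.98, both with overlapping arrays. Ace, angiotensin converting enzyme, had 0.71, 0.47 and 1.60 in OA mice, against 0.22 and 0.41 in serum mice, which did not overlap. Its difference was 0.61, but 0.06 within the slide. Of 5 tissue macrophage genes measured of 14, Cd68, a lysosomal protein of phagocytes, differed by 0.75 without overlap, while its other probe gave 0.05. Within the slide Cd68 differed by 0.21.

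T cell and NK cell markers lay lower on average after OA, without a gene that passed. Of 16 T cell genes, 15 had a negative difference, with a median of -0.32 beside -0.05 over all genes. Lck, the kinase that starts T cell receptor signalling, had 6.45, 5.96 and 5.52 in OA mice, against 6.54 and 6.53 in serum mice. OA replicate 1 was close to the serum mice and OA replicate 3 the farthest from them, and the difference was -0.56 (SE 0.40). Cd3g, a chain of the T cell receptor complex, had 4.55, 4.37 and 3.67 in OA mice, against 4.56 and 4.69 in serum mice. These 2 genes were the ones whose arrays did not overlap, against 2.59% of all genes that were lower without overlap. Cd5 and the transcription factor Bcl11b differed by -0.42 and -0.43 with overlap.

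The T cell median was -0.04 without OA replicate 3, the mouse with the highest erythroid and second highest neutrophil mean, and -0.55 without OA replicate 1. The mean level of the T cell list was 4.12, 3.82 and 3.21 in OA mice, against 3.98 and 4.03 in serum mice. OA replicate 1 was the highest of the 5 and OA replicate 3 the lowest. B cell markers had a median of -0.05 over 14 genes, the same as all genes, with means of 4.09, 4.45 and 3.69 in OA mice, against 3.96 and 4.23 in serum mice. No B cell gene had arrays that did not overlap, against 5.2% of all genes.

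All 15 NK and cytotoxic genes had a negative difference, from -0.63 to -0.12, with a median of -0.42. The mean level of the list was 2.82, 2.46 and 2.28 in OA mice, against 3.14 and 2.72 in serum mice. These means overlapped, because OA replicate 1 lay above serum replicate 2. Tbx21 (T-bet), the transcription factor of type 1 lymphocytes and NK cells, had 2.08, 1.76 and 1.65 in OA mice, against 2.54 and 2.38 in serum mice. The groups did not overlap, and the difference was -0.63 (SE 0.43, 95% interval -1.51 to 0.25). Ccl5, a chemokine stored in cytotoxic cells, had 7.65, 7.56 and 7.33 in OA mice, against 8.09 and 8.10 in serum mice. Klre1, an NK cell lectin-like receptor, and Klrb1c (NK1.1), the NK cell marker of this strain, also did not overlap and differed by -0.58 and -0.57. The other Klrb1c probe gave -0.31. Klrd1 (CD94) differed by -0.58 with overlapping arrays. In all, 4 of 15 were lower without overlap, against 2.59% of all genes. The median stayed below 0 in each of 5 fits that left out 1 array, from -0.69 without serum replicate 2 to -0.16 without serum replicate 1.

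Basophil, mast cell and eosinophil genes had a median of 0.77 over 7 genes, 4 above and 3 below 0, and it was 0.14 without serum replicate 1. Prg2, the major basic protein of eosinophils, had -3.59, -1.19 and -2.13 in OA mice, against -2.52 and -4.72 in serum mice, with overlap, and was above background on 2 OA arrays and neither serum array. Prss34, the basophil protease mMCP-11, had -4.43, -2.69 and -2.21 in OA mice, against -1.86 and -1.74 in serum mice, without overlap. The difference was -1.31, and 1 of the OA arrays and both serum arrays were well above background. Siglecf, an inhibitory lectin of eosinophils, ran the other way with overlapping arrays and differed by 1.07. Only 1 serum array had it well above background. Dendritic cell genes had a median of -0.01 over 13 genes, 6 above and 7 below 0. The lowest was Cd209a, a C-type lectin of dendritic cells and monocytes. It had 0.73, -0.24 and -2.25 in OA mice, against 0.33 and 0.73 in serum mice, so that its difference of -1.12 came with an overlap.

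Inflammatory cytokines and chemokines had a median of 0.29 over 16 genes, 13 above and 3 below 0, and 0 passed the test. Cxcl2, a neutrophil-attracting chemokine whose promoter with its 2 NF-kB-like matches is given above, had -2.19, 0.27 and -0.17 in OA mice, against -4.29 and -1.31 in serum mice. OA replicate 1 lay between the serum mice, and the difference of 2.11 (SE 0.96) was the highest of the list. Cxcl2 was well above background on only 1 serum array. In serum replicate 1 it lay below the lowest signal well above background there, -2.27, so the size of the difference is uncertain. Il1b, interleukin 1 beta, had 3.13, 5.61 and 4.81 in OA mice, against 1.70 and 4.26 in serum mice, with the same overlap and a difference of 1.54 (SE 1.02).

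Ccl2, the main ligand of Ccr2, had -0.93, -0.96 and -1.37 in OA mice, against -2.58 and -1.85 in serum mice. It was the 1 gene of the 16 in this list whose arrays did not overlap, against 2.6% of all genes that were higher without overlap. The difference was 1.13 (SE 0.52), or 2.18-fold. Only 1 serum array had Ccl2 well above background. Ccl6, a chemokine of myeloid cells, differed by 1.07 with overlap. Tnf (0.05) and Ccl3 (-0.07) lay near 0.

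**Figure D3:**
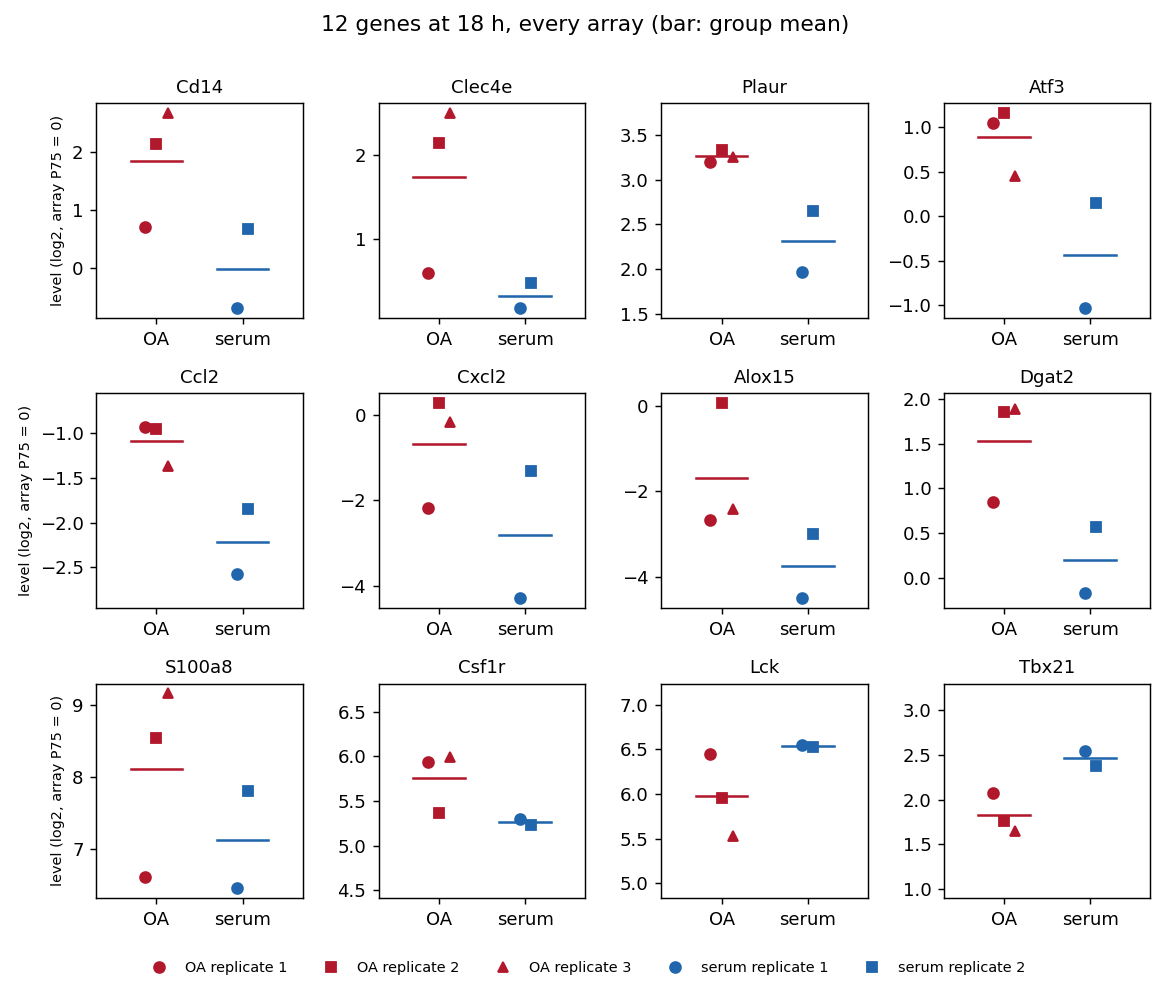
Log2 level (vertical axis, relative to each array's 75th percentile) of 12 genes in every array at 18 h, OA on the left and serum on the right of each panel, with a bar at the group mean. Plaur sits at 3.20, 3.34 and 3.26 in OA mice and at 1.97 and 2.65 in serum mice, Lck and Tbx21 lie lower in OA mice, and Cxcl2 and S100a8 overlap through OA replicate 1.

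Sensors of injury and their signalling chain had small positive medians. Toll-like receptor and inflammasome genes had a median of 0.12 over 21 genes, and 6 were higher without overlap and 1 lower, against 2.6% and 2.59% of all genes. Tlr13, a receptor for bacterial ribosomal RNA, had 2.63, 2.91 and 2.81 in OA mice, against 1.49 and 2.29 in serum mice, a difference of 0.89. Tlr4, the lipopolysaccharide receptor that Cd14 serves, had -1.77, -1.23 and -1.44 in OA mice, against -2.44 and -2.06 in serum mice. Only 1 serum array had it well above background. Myd88, the adaptor of most of these receptors, had 2.79, 3.31 and 2.89 in OA mice, against 2.03 and 2.63 in serum mice. The groups did not overlap in any of these 3. Tlr6, a partner of Tlr2, differed by 0.77 with overlap, and the inflammasome genes Nlrp3 (-0.16), Pycard (0.00) and Casp1 (0.09) lay near 0.

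Immediate early genes had a median of 0.32 over 18 genes, 14 above and 4 below 0, and it was -0.12 without serum replicate 1. Atf3, a stress-induced repressor, had 1.05, 1.15 and 0.45 in OA mice, against -1.03 and 0.15 in serum mice. All OA mice lay above both serum mice, and the difference was 1.33 (SE 0.50, 95% interval 0.28 to 2.37), with 1.00 within the slide. Dusp1, a phosphatase that ends MAP kinase signals, had 4.22, 5.42 and 4.44 in OA mice, against 2.82 and 4.52 in serum mice, and serum replicate 2 lay above 2 of the OA mice. Genes that restrain inflammation had 15 of 16 differences above 0, with a median of 0.39 and 3 higher without overlap, against 2.6% of all genes. Socs3, which blocks cytokine receptors, had 3.70, 3.95 and 4.35 in OA mice, against 3.16 and 3.37 in serum mice, without overlap and with a difference of 0.73.

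Genes of chemoattraction, clotting and fibrinolysis had medians near that of all genes, 0.07 over 20 receptors and adhesion molecules and -0.10 over 10 coagulation genes. The coagulation median was 0.74 without serum replicate 2 and -0.29 without serum replicate 1. Plaur, the urokinase receptor that focuses plasmin on the cell surface, had 3.20, 3.34 and 3.26 in OA mice, against 1.97 and 2.65 in serum mice. The OA mice had an SD of 0.07 (n = 3) and lay above both serum mice, and the difference was 0.95 (SE 0.37, 95% interval 0.18 to 1.73) and 0.69 within the slide. Anxa2, a cell-surface plasminogen receptor, had 6.07, 6.13 and 6.20 in OA mice, against 5.12 and 5.82 in serum mice. Thbd, thrombomodulin, had 0.50, -0.69 and -0.42 in OA mice, against -1.07 and -0.81 in serum mice, also without overlap. Anxa2 and Thbd differed by 0.66 and 0.73, but within the slide by 0.32 and 0.12. C5ar1, the receptor for complement C5a, differed by 1.18 and Fpr2, a receptor for formyl peptides and lipoxin, by 0.97, both with overlap. Only 1 serum array had C5ar1 well above background.

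Lipid genes were examined because the injected agent is a fatty acid. Targets of the PPAR lipid receptors and lipid droplet genes had a median of 0.03 over 18 genes. Dgat2, which makes triglyceride from diglyceride, had 0.84, 1.85 and 1.89 in OA mice, against -0.17 and 0.56 in serum mice, without overlap. The difference was 1.33 (SE 0.54, 95% interval 0.22 to 2.44), or 2.52-fold. Fabp5, a fatty acid carrier, differed by 0.87 and Lpl, lipoprotein lipase, by -0.84, both with overlap. The PPAR targets Angptl4 and Fabp4 lay at 0.00 and -0.17. For Cd36, a fatty acid transporter, 1 spot of these arrays carried the scanner's outlier mark and was dropped from the fit.

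Mitochondrial fatty acid oxidation genes had a median of 0.04 over 18 genes. Cpt1a, the gate for fatty acids into mitochondria, had 3.15, 2.80 and 2.87 in OA mice, against 2.43 and 2.04 in serum mice. The groups did not overlap, and the difference was 0.70 (SE 0.46). Decr1 (-0.27) and Acadvl (-0.15), a reductase and a dehydrogenase of the pathway, were lower without overlap. Acadm (0.03), Hadha (-0.11) and Etfdh (0.08), enzymes further along the pathway, lay near 0. Sterol and fatty acid synthesis genes had a median of -0.08 over 20 genes, with Cyp51, a sterol demethylase, at -0.90 and above background on 1 array of each group. Hmox1, the haem-degrading enzyme, had 1.26, 1.75 and 2.13 in OA mice, against 0.66 and 0.92 in serum mice, without overlap. Its 2 probes gave 0.92 and 0.30, and the NRF2 target list that holds it had a median of -0.04.

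Among the lipid mediator genes, Alox15, whose probe is printed above, had the largest difference. It had -2.68, 0.06 and -2.41 in OA mice, against -4.50 and -2.99 in serum mice. The groups did not overlap, but neither serum array was well above background. The probe passed the filter on dim probes through the OA arrays alone, which favoured a difference. The bound was at least 1.70-fold higher in OA mice, and it rested on OA replicate 2, which was far above the other 2. Those 2 lay near the lowest signals well above background on the serum arrays, -2.27 and -2.61. Alox5, which starts leukotriene synthesis, differed by 1.02 with overlap. Anxa1, a glucocorticoid-induced protein that limits leukocyte entry, had 3.64, 4.25 and 4.60 in OA mice, against 3.24 and 3.48 in serum mice, without overlap, and its 2 probes gave 0.80 and 0.86. Pla2g7, which breaks down platelet-activating factor, differed by 0.92 with overlap. Eicosanoid synthesis as a list had a median of -0.07 over 15 genes.

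Glucocorticoid-responsive genes had a median of 0.23 over 15 genes, 11 above and 4 below 0, and it was 0.56 without OA replicate 3 and 0.04 without serum replicate 1. Ddit4, an inhibitor of mTOR signalling induced by glucocorticoids and hypoxia, had 5.49, 5.33 and 4.65 in OA mice, against 3.52 and 4.48 in serum mice, a difference of 1.16 without overlap. Cebpd, an acute phase transcription factor, differed by 1.03 with overlap, while Fkbp5, a sensitive glucocorticoid target, lay at -0.05. Sult1a1 differed by -0.75 at 1 probe and 0.25 at the other. The clock repressor Nfil3 had 1.24, 0.87 and 1.31 in OA mice, against 0.03 and 0.35 in serum mice, without overlap, in a clock list with a median of 0.02 over 12 genes.

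Interferon-stimulated genes had a median of 0.16 over 24 genes, 14 above and 10 below 0, and the arrays of 5 were higher after OA without overlap, against 2.6% of all genes. Oas2, a sensor of double-stranded RNA, had 2.58, 2.40 and 2.71 in OA mice, against 2.04 and 1.80 in serum mice. Oas1a differed by 0.65 (0.37 at its other probe) and the guanylate-binding protein Gbp2 by 0.71, also without overlap. Within the slide Oas1a and Gbp2 differed by 0.12 and 0.47. The antiviral GTPase Mx1 differed by -0.62 with overlap. The list's median was -0.00 without OA replicate 3 and 0.45 without OA replicate 1.

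Housekeeping lists differed little between the groups. Ribosomal protein genes had a median of -0.01 over 21 genes, with single genes from -0.25 to 0.11. Oxidative phosphorylation and proteasome genes each had a median of -0.03 over 20 genes. Their ranges were -0.34 to 0.19 and -0.29 to 0.17.

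**Figure D4:**
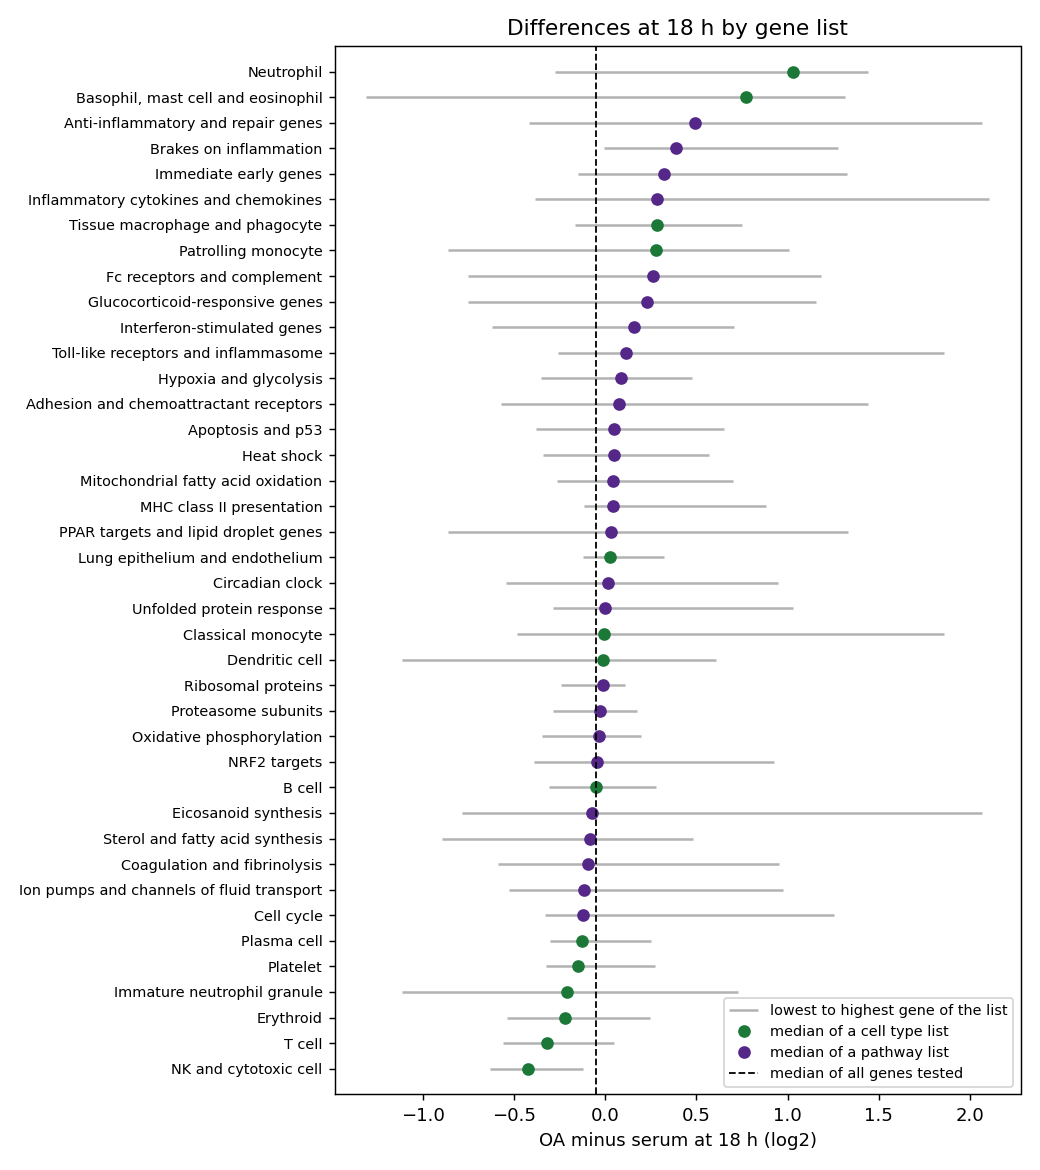
OA minus serum at 18 h (horizontal axis, log2) for 40 gene lists (vertical axis): points are the medians of the measured genes, grey lines run from the lowest to the highest gene, and the dashed line is the median of all 18546 genes at -0.05. The neutrophil list is the highest at 1.03 and the NK and cytotoxic list the lowest at -0.42, while the ribosomal, proteasome and respiratory chain lists sit on the dashed line.

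The genes with the smallest unadjusted p among those whose arrays did not overlap were mostly dim. Of the 15 named genes that were higher after OA, 13 were well above background on neither serum array, and for 11 of them a bound could be given, at least 1.11-fold to 2.09-fold higher in OA mice. These 13 passed the filter on dim probes through the OA arrays alone, so they had to differ. Over all genes measured, 6 were not above background on any OA array and 640 on either serum array. Penk, which encodes enkephalin peptides, had -1.25, -0.86 and -2.95 in OA mice, against -3.88 and -4.41 in serum mice, at least 1.68-fold higher. Tceal6 (at least 2.09-fold), Tex28 (2.01-fold), Dhrs9, a retinol and steroid dehydrogenase (1.85-fold), Amhr2, the anti-Müllerian hormone receptor (1.78-fold), Ddr2, a collagen receptor (1.62-fold), Ttc25 (1.57-fold), Pip5k1c, a phosphoinositide kinase (1.45-fold), 4930471M09Rik (1.37-fold), Rgs6 (1.15-fold) and Vmn2r105 (1.11-fold) followed. Il13ra1, a chain of the interleukin 13 receptor, and Fam209 gave no bound above 1.

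Lilr4b, an immunoglobulin-like receptor of myeloid cells, was the 1 of these 15 that was well above background on all 5 arrays. It had 0.88, 1.03 and 1.51 in OA mice, against -0.78 and -0.04 in serum mice. The groups were apart by more than the range among OA mice, and the difference was 1.55 (SE 0.47, 95% interval 0.57 to 2.53), with 1.07 within the slide. Celsr3, a cadherin, had -1.13, -1.06 and -0.76 in OA mice, against -2.44 and -2.18 in serum mice, with 1 serum array well above background.

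Of the 15 named genes that were lower after OA, 12 were well above background on both serum arrays and 6 on all 5 arrays. Gcdh, a mitochondrial enzyme of lysine breakdown, had -1.02, -0.87 and -1.34 in OA mice, against 1.32 and -0.72 in serum mice. Its difference of -1.38 rested on serum replicate 1 and was -0.16 within the slide. Slc16a5, a monocarboxylate transporter, had -0.36, -1.13 and -1.06 in OA mice, against 0.21 and 0.10 in serum mice, without overlap, and the within-slide difference was -1.23. Nefh, a neurofilament chain, differed by -1.11 (-0.48 at its other probe), Eps8l1 by -1.14, A630026N12Rik by -0.81 and Fam240a by -0.71, each with arrays that did not overlap and were all above background. Within the slide they differed by -0.72, -0.30, -0.52 and -0.91, in that order. Cd160, a receptor of NK and cytotoxic T cells, had -2.77, -2.92 and -4.24 in OA mice, against -1.92 and -2.36 in serum mice, and was above background on 1 OA array and both serum arrays. Others were 5430405H02Rik, Zfp606, Gm7969, Pola2, Pias3, A930009A15Rik and Lyrm7, from -2.38 to -1.15. Over all 171 genes with an unadjusted p under 0.05, 68 were not above background on either serum array and 50 were above it on all 5 arrays.

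The difference at 18 h was set against the difference at 24 h, which used 3 OA and 2 serum arrays of mice treated in the same way. At 24 h, 2978 of the same genes rose (16.1%) and 906 fell (4.89%) at an adjusted p of 0.05 in limma, and the median difference was 0.46. Both 24 h serum arrays lay on slide 1, which held no 24 h OA array. Slide and treatment therefore cannot be told apart from the 24 h arrays alone. Of the 2 serum arrays, 1 had a median correlation of 0.83 with the other arrays. In a set of 92 named genes, 21 passed at 24 h, 20 higher and 1 lower, and 5 of these had the opposite sign at 18 h. The set does not hold every gene named here: genes near 0 and some others, such as Camp and Decr1, are outside it. Katnal1 and Scgb1a1, described below, are also outside it, and both passed at 24 h with the opposite sign. Plaur (0.95 at 18 h and 1.42 at 24 h), Atf3 (1.33 and 2.38) and Csf1r (0.49 and 2.36) passed at 24 h, and Cd14 (1.86 and 1.83) did not. The 5 of opposite sign in the set were Tbx21 (-0.63 and 1.31), Ccr2 (-0.48 and 2.11), Mx1 (-0.62 and 2.22), A630026N12Rik (-0.81 and 1.03) and Rgs6 (1.61 and -2.70). The test of that change for Tbx21 gave an adjusted p of 0.199.

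A test of the 18 h difference minus the 24 h difference passed for 1 gene (0.00539% of genes). At an unadjusted p under 0.05 there were 4194 genes (22.6%). The gene was Katnal1, a subunit of the microtubule-severing katanin family. It had -0.11, -0.32 and -0.75 in OA mice, against -0.05 and -0.39 in serum mice at 18 h, and 0.06, -0.12 and -0.08 in OA mice, against -3.28 and -3.42 in serum mice at 24 h. The differences were -0.17 at 18 h and 3.30 at 24 h, and their contrast was -3.48 (SE 0.56, adjusted p = 0.0432 in limma). The 2 serum arrays of 24 h, both on slide 1, were the ones that stood apart, and 5 of 24 alternatives kept the call. With slide as a fixed block the contrast was -3.57 and did not pass. It was -0.77 with normexp background correction, -1.71 with the authors' deposited values and -1.83 with the mean of a gene's probes, and passed in none of these 3.

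Scgb1a1, the secretoglobin of lung club cells, had the highest positive contrast by p, 5.49 (SE 1.02, adjusted p = 0.105). It had -2.91, -2.23 and 0.15 in OA mice, against -1.64 and -2.33 in serum mice at 18 h, and -2.57, -2.86 and -1.68 in OA mice, against 3.35 and 2.24 in serum mice at 24 h. Its 18 h groups overlapped, and the 24 h serum arrays were again the separate ones. It passed in 5 of 24 alternatives, among them normexp background correction (adjusted p = 0.0477 in limma) and the authors' deposited values (0.00236). Over the 24 alternatives the adjusted p in limma ranged from 0.00236 to 0.830.

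Against the mean of the differences at 1, 1.5, 3 and 4 h, the 18 h difference passed for 0 genes (0.0%; limma, lowest adjusted p = 1.00), and 392 genes had an unadjusted p under 0.05 (2.11%). The 4 h groups held 2 OA arrays and 1 serum array. The neutrophil list had medians of 0.86, -0.46, 0.45 and -1.42 at 1, 1.5, 3 and 4 h, beside 1.03 at 18 h and 0.33 at 24 h. The NK and cytotoxic list had -0.21, -0.15, 0.16 and -0.18, beside -0.42 at 18 h and 0.92 at 24 h. All-gene medians at these times were 0.05, 0.20, 0.08, -0.42, -0.05 and 0.46.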

How the data were processed

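Agilent scanner files of 30 arrays were deposited, with linear processed-signal intensity values, background-corrected within each array by Feature Extraction 10.5.1.1, per the file headers. The authors' deposited value table holds log2 values by comparison with the scanner files, and how they were scaled and centred is not stated in any source used. It served as an alternative. Control spots and spots with the outlier mark were left out, and values are log2 signals minus the 75th percentile of the non-control probes of the same array. Spots of 1 probe were averaged. A probe was kept if 2 or more of the 5 arrays of 18 h had it well above background (25010 of 55681), and the probe with the highest mean over these arrays stood for its gene (18546 genes, 12803 with a symbol, 4635 with several kept probes). Names came from RefSeq (GRCm38.p6) by accession (26762 probes), symbol (3819) or older symbol (639), and the file's own name was used for 24461. Probe positions are given in mm9, as in the files.

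Using limma 3.58.1 under R 4.3.3, the 30 arrays were modelled as 12 groups of treatment and time (18 residual degrees of freedom, prior 4.90, median residual SD 0.487), so that the spread comes from all times. Tests were two-sided, and the code was tested on simulated data. The number of arrays limits the precision. Where every array of a group was below background, a fold is given as a bound: the mean of the brighter group over a floor for the other, which on each array is the lowest signal well above background, or the probe's own signal if that is higher.

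The groups, the 40 gene lists (567 of 657 genes measured) and the rules for named genes were chosen with earlier results of these data known. Named genes were, per direction, the 15 symbols with the smallest p among genes whose arrays did not overlap; per list, up to 4 members with the largest difference and those that define it; and the genes with the smallest p for 18 h against 24 h. Genes named beside these with a difference near 0 were picked after their values were seen. Alternatives changed the scaling, background correction, filter, arrays in the fit, slide or replicate block, probes per gene and array weights, or left out arrays. Of the genes chosen by these rules, 1 is not reported here.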

Additional observations from a re-analysis of the deposited data

Results flagged for a closer look

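Katnal1 met the test of a difference between the 18 h and 24 h effects: OA minus serum was -0.17 at 18 h and 3.30 at 24 h, a contrast of -3.48 with an adjusted p of 0.0432 in limma. The 3 OA arrays of 24 h lay at 0.06, -0.12 and -0.08 and the 2 serum arrays of 24 h, both on slide 1, at -3.28 and -3.42, so slide and treatment cannot be told apart there. Its other probe gave 0.14 at 18 h.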

How the results depend on the processing

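The count of genes past an adjusted p of 0.05 at 18 h, and that for 18 h against the earlier times, was 0 under every alternative that gave them. The count at an unadjusted p under 0.05 (171) was 52 with normexp background correction, 63 with probes above background on all 5 arrays, 416 without a filter on dim probes, 83 with the 5 arrays of 18 h alone and 868 with array weights, and ranged from 213 to 716 when 1 array was left out. Quantile normalization gave 132 higher and 29 lower genes and the authors' deposited values gave 126 and 29, beside 119 and 52. Without a filter on dim probes they were 145 and 271, and with the looser filter on all 30 arrays 122 and 123.

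Replicate numbers come from the titles and were not used to pair the mice in the main test. Deviations of same-numbered mice correlated at -0.09 and 0.51 over 2 pairs. These values cannot decide whether the mice were paired. Deviations of 2 serum arrays mirror each other, and the second pair shared slide 4. The replicate block, which takes OA replicate 3 out of the comparison, gave 436 genes at an unadjusted p under 0.05 and 0 genes for 18 h against 24 h.

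The 1 gene for 18 h against 24 h became 0 with scaling to always-detected probes, the 10 arrays of 18 and 24 h, slide as a fixed block, the mean of a gene's probes, array weights, or without serum replicate 1 of 24 h, OA replicate 2 of 4 h and serum replicate 3 of 1.5 h together (added after seeing the data). With normexp, the authors' deposited values, the looser filter, no filter or without serum replicate 1 of 18 h the 1 gene was a higher one and so not Katnal1, and without serum replicate 2 of 18 h it was not Katnal1 either (adjusted p = 0.105). With normexp and the authors' values it was Scgb1a1 (0.0477 and 0.00236). It became 3 with quantile normalization and 2 with probes above background on all 5 arrays. Leaving out 1 array gave 0 to 6623 genes, 6623 without serum replicate 2 of 24 h and 0 without serum replicate 1. The cause was not tested.

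Of the same 92 named genes, 90 kept the sign of their 18 h difference under every alternative that gave a value. Many were chosen for arrays that did not overlap, where leaving out 1 array cannot reverse the sign, or for large differences. The count was therefore partly fixed by the choice of genes. Pip5k1c was -0.34 with the looser filter and with no filter, and Ttc25 was -0.43 with the looser filter, where another probe stood for the gene. Of 840 list medians, 18 moved by more than the spread between arrays. Without serum replicate 2 the eicosanoid median was 1.31 and the platelet median 1.12, and without serum replicate 1 the platelet median was -1.44.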
